A study of Mus musculus with 8 samples.

Results

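Among the 87774 entries of NONCODE, a catalogue of noncoding transcripts, that were counted in mouse heart RNA, 8788 were present at a low level. They were chosen by their mean CPM, which over all 8 libraries was at least 0.5 and under 5. CPM, the usual measure of relative abundance in count tables, is a feature's count as a share of the library's total over all features, scaled to a library of 1000000 counts. The level thus chose them and is no finding, and the difference between the groups was not part of the rule. Above them stood 766 NONCODE features at 5 CPM or more, below them 36869 with some counts, and 41351 had no count in any library.

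All 8 libraries came from hearts of 2-week-old mice of a mixed strain in which Lmna, which encodes the lamins A and C, was knocked out (Lmna-/-). The 3 libraries labelled Lmna-/- (replicates 6, 7 and 8), whose labels name no vector and which are called untreated here, were set against 5 labelled Lmna-/-:AAV9 Lmna WT (replicates 1 to 5), called AAV9-LMNA, from knockout hearts in which wild-type LMNA was put back with an adeno-associated virus of serotype 9. The knockout is shared by both groups, and neither wild-type hearts nor hearts given an empty vector were analysed here. The sources used here do not give the vector's promoter, its dose or the cells it reached.

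Long noncoding RNAs are transcripts that are made like messenger RNAs but are not translated. Many stay in the nucleus near the gene they come from, many are present at far lower levels than messenger RNAs, and the nuclear exosome, a complex that degrades RNA from its end, removes many of them soon after they are made. Some act on chromatin or on a neighbouring gene, as Xist does on the X chromosome, but for most catalogue entries no function is known. Lamins A and C form a meshwork under the nuclear membrane to which part of the chromatin is tethered. The features are named here by their NONCODE identifiers, since the files pair no gene name, position or sequence with them.

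Lmna itself, as a check of the labels, was at 47.1, 72.2 and 33.2 CPM in untreated replicates 6, 7 and 8, and at 373, 226, 318, 303 and 739 CPM in AAV9-LMNA replicates 1 to 5. Each AAV9-LMNA library was above each untreated one (log2 fold change 3.03, standard error 0.46, adjusted p = 0.00486, edgeR quasi-likelihood test). The 10 heart muscle markers, Myh6 and Tnnt2 among them, summed to between 56583 and 80698 CPM in the untreated and between 64835 and 77554 CPM in the AAV9-LMNA libraries. The 10 atrial markers summed to 1217 CPM in untreated replicate 8 and to between 109.7 and 215 CPM in the other 7 libraries. Of the 9 tested, 5 were called lower in AAV9-LMNA hearts, against 15% of all features tested. Among these, Myl4, Myl7 and Bmp10 were at 410, 316 and 84.4 CPM in untreated replicate 8 and at 9.24 CPM or less in every other library. Nr2f2 and Gnao1, also called, were higher in each untreated library than in any AAV9-LMNA library. The 12 macrophage markers summed to 216 CPM in untreated replicate 6, 826 in replicate 7 and 350 in replicate 8, against 584 to 690 CPM in the AAV9-LMNA libraries. Untreated replicate 6 was also the lowest library for fibroblast markers (1720 CPM against 4335 to 7409 in the other 7), endothelial markers (1146 against 1541 to 1998 CPM) and neuron and glia markers (7.08 against 18.1 to 24.3 CPM). The Y-linked genes Ddx3y, Uty, Kdm5d and Eif2s3y were at 0.177 CPM or less in AAV9-LMNA replicate 1 and at 28.7 CPM or more in every other library. Counts on features ran from 21439956 to 26492443, so that 1 read was worth between 0.0377 and 0.0466 CPM.

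Few of the long noncoding RNA genes that Ensembl names had counts in these tables. Of 12341 Ensembl long noncoding RNA genes, 11543 (93.5%) were at 0 in all 8 libraries, against 17.5% of 21865 coding genes. A fixed list of 30 well-known long noncoding RNAs gave the same picture: 27 were at 0 everywhere, among them Malat1, Neat1, Meg3 and H19. A read that overlaps an Ensembl gene and a NONCODE gene counts for neither and goes to the ambiguous line, which held 21.0 to 26.4% of the reads on features, outside them or ambiguous; the part of this in the zeros was not tested. Of the list, Tug1 and Dleu2 could be tested. Tug1 was at 2.16 ± 1.02 CPM (SD, n = 3) in untreated and 1.92 ± 0.313 CPM (SD, n = 5) in AAV9-LMNA libraries, and Dleu2 at 0.803 ± 0.241 and 0.484 ± 0.17 CPM. Neither passed (edgeR adjusted p = 0.825 and 0.198).

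As a whole, the low-level NONCODE features held a larger part of the counts in every untreated library than in any AAV9-LMNA library. They took 2.04, 1.43 and 1.57% of the counts on features in untreated replicates 6, 7 and 8, and 1.06, 1.02, 0.986, 1.07 and 1.07% in AAV9-LMNA replicates 1 to 5. The means were 1.68% ± 0.322 (SD, n = 3) and 1.04% ± 0.0384 (SD, n = 5), a ratio of 1.61. Untreated replicate 6 stood highest and the 5 AAV9-LMNA libraries lay close together. The median feature was at 1.71, 1.26 and 1.35 CPM in the untreated libraries and at 0.834 to 0.941 CPM in the AAV9-LMNA libraries. In bulk tissue, fewer cells of a type and less RNA per cell cannot be told apart.

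Reads that fell outside every feature moved with them. They made up 24.7, 16.8 and 18.4% of the reads in untreated replicates 6, 7 and 8, and 12.3, 12.1, 12.1, 12.8 and 12.8% in AAV9-LMNA replicates 1 to 5, counted over reads on features, outside them or ambiguous. The group means, 19.9% ± 4.19 (SD, n = 3) and 12.4% ± 0.364 (SD, n = 5), differed by a ratio of 1.61 (exact permutation test, two-sided p = 0.0179, the smallest that 3 against 5 libraries can give). Counted over the same reads, the low-level features held 0.946% ± 0.144 (SD, n = 3) and 0.651% ± 0.0148 (SD, n = 5), a ratio of 1.45. The 3 untreated libraries had the same order in the outside reads and in the low-level features. Set against each other, the low-level features held 44.9, 49.9 and 48.6 counts per 1000 outside reads in untreated replicates 6, 7 and 8, and 53.0, 53.1, 52.3, 51.7 and 52.1 in AAV9-LMNA replicates 1 to 5. On this scale the untreated libraries were the lower ones, at 47.8 ± 2.57 (SD, n = 3) against 52.4 ± 0.582 (SD, n = 5), and the ratio of untreated to AAV9-LMNA was 0.912. What share of the features' difference goes with the reads outside features was not tested.

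**Figure D1:**
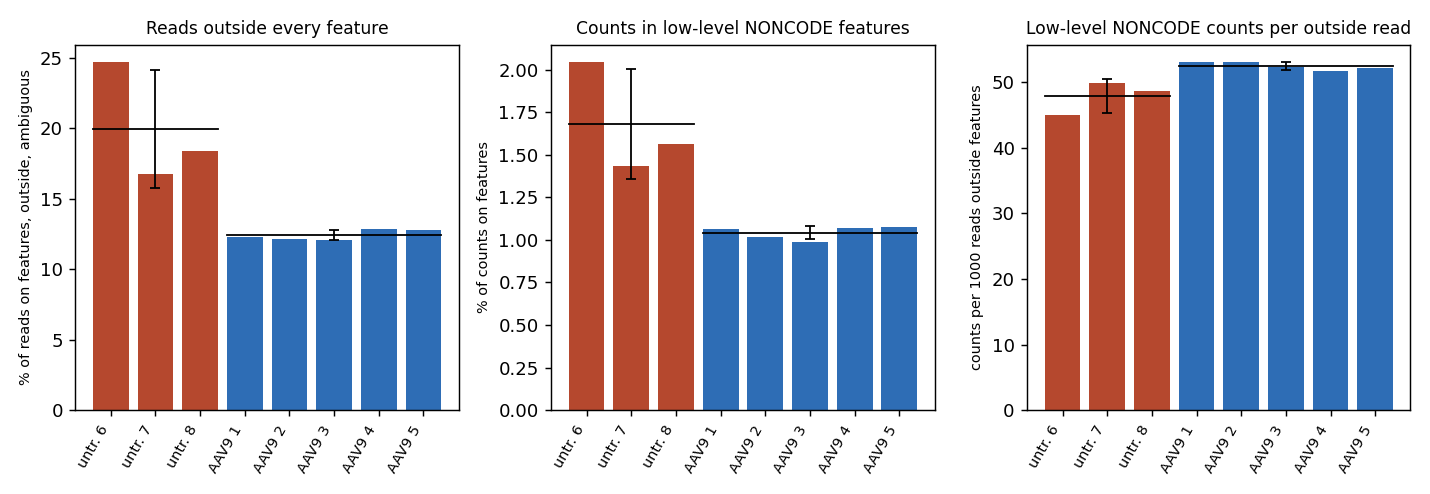
Bars give 1 library each (red, untreated replicates 6 to 8; blue, AAV9-LMNA replicates 1 to 5), with the group mean as a line and the SD as an error bar. Reads outside features (left) and counts in low-level NONCODE features (middle, both in percent) are higher in all 3 untreated libraries, while the counts per 1000 outside reads (right) are lower there, 44.9 to 49.9 against 51.7 to 53.1.

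Nearly all of the low-level features were detected everywhere. Of 8788, 8731 (99.4%) had at least 1 count in all 8 libraries and 5382 had at least 10 counts in all 8. Between 5 and 25 features were at 0 in any one library. Untreated replicate 6 was the highest library for 4535 features (51.6%), replicate 8 for 1425 (16.2%) and replicate 7 for 1090 (12.4%), while the AAV9-LMNA libraries were highest for 280 to 418 features each (3.19 to 4.76%). In untreated replicate 6, 6084 features (69.2%) lay above every AAV9-LMNA library, in replicate 8 4959 (56.4%) and in replicate 7 4453 (50.7%). Within the AAV9-LMNA group, a single library lay above its 4 companions for 14.8 to 24.5% of the features. The coefficient of variation between libraries had a median of 31.6% in the untreated and 28.2% in the AAV9-LMNA group, where counting error alone would give 17.4 and 21.9% at the median.

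The test across all features called many of the low-level features lower in AAV9-LMNA hearts and few higher. Of the 8757 that passed the filter on low counts, 2482 (28.3%) fell and 100 (1.14%) rose, and 6175 were not called (edgeR quasi-likelihood test, adjusted p under 0.05 over 26717 features). Over all features tested, 15% were called lower and 10.6% higher, 25.7% in all. The median log2 fold change of AAV9-LMNA over untreated was -0.62 for the low-level features and -0.032 for all features. The groups did not overlap in 3047 of them (34.8%) with AAV9-LMNA lower and in 136 (1.55%) with AAV9-LMNA higher, against 19.5% and 9.16% of all features tested.

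The direction depended on what the libraries were scaled to. With NONCODE features scaled and tested alone, 737 fell and 696 rose, and the median was -0.046. Of all NONCODE features tested in that fit, 7.95% fell and 8.12% rose (16.1% in all). That scaling sets the bulk of the NONCODE features near no change, and 8755 of the 11104 tested were low-level ones. A median near 0 is thus built in, and the near-even split goes with it. With factors from Ensembl features, 3289 fell and 46 rose, against 21.4% and 3.84% of all features, and the median was -0.82. With each library scaled to its reads outside features, a setting chosen after the data were seen, 562 fell and 1205 rose, against 2.93% and 43.1% of all features, and the median was 0.12. The median of all features moved to -0.23 with the Ensembl factors and to 0.67 with the outside reads. With the share of reads outside features as a term beside the group, 9 fell and 3 rose (1.24% and 0.445% of all features, 1.69% in all), and the median was -0.17. That share was higher in every untreated library than in any AAV9-LMNA library, so the term is bound up with the group. The fit can hardly tell them apart, and the lost calls do not show what the features depend on.

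**Figure D2:**
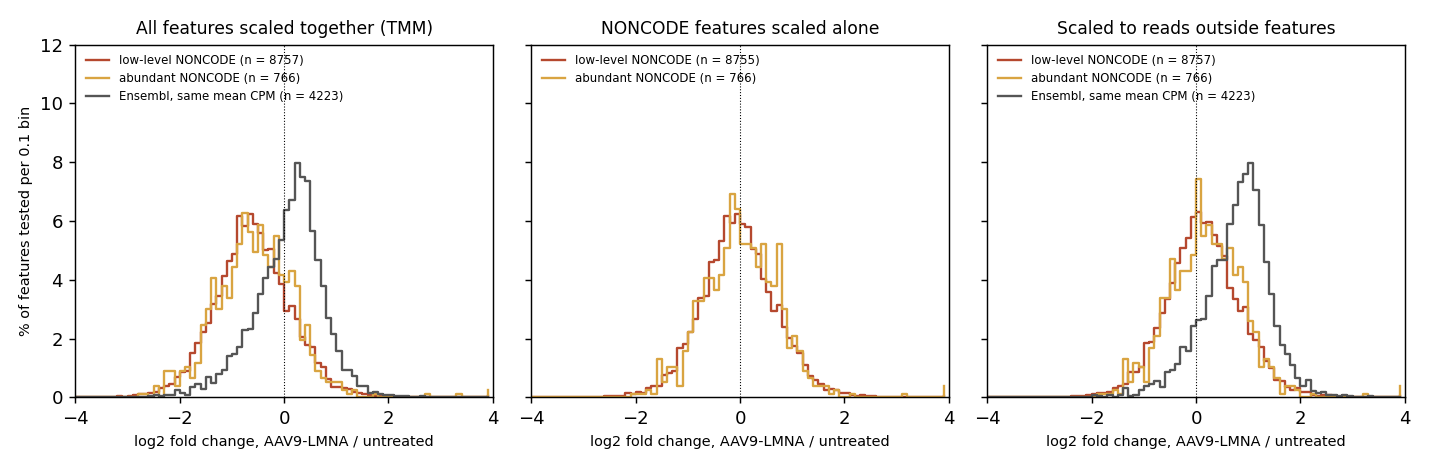
Each curve gives the percent of features tested per 0.1 of log2 fold change (AAV9-LMNA over untreated), with values beyond 4 put in the end bins. The low-level (red) and abundant (yellow) NONCODE features lie left of 0 when all features are scaled together. There they lie apart from Ensembl features of the same mean CPM (grey). NONCODE features lie around 0 when scaled alone, which follows from that scaling, and when scaled to reads outside features.

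Other features at hand differed from the low-level ones in some measures and were like them in others. The 766 abundant NONCODE features had a median of -0.55, with 346 called lower and 31 higher (45.2 and 4.05%). Ensembl features of the same mean level had a median of 0.16, with 201 of 4223 called lower and 220 higher (4.76 and 5.21%). The abundant features also took a larger part of the counts in the untreated libraries, by a ratio of 1.51, and for Ensembl features of the same level that ratio was 0.981. Within the low-level features the median fold change hardly moved with the level: it was -0.59 from 0.5 to 1 CPM, -0.66 from 1 to 2 CPM and -0.60 from 2 to 5 CPM. The numbers called lower in these classes were 766 of 3831, 969 of 2980 (32.5%) and 747 of 1946 (38.4%).

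The filter asked for 0.446 CPM in at least 3 libraries, and 31 of the 8788 features did not pass it. In the median one of the 31, 1 library held 44.2% of the counts, and untreated replicate 6 was the highest library for 19 of them. Of those that passed, 842 reached the limit in all 3 untreated but in fewer than 3 AAV9-LMNA libraries. Another 878 reached it in 3 or more AAV9-LMNA but not in all untreated libraries. A difference is thus built into the 842 and the 878. The 842 held 460 of the 2482 falls and 0 rises, and the 878 held 53 of the 100 rises and 3 falls. A further 192 reached the limit only through libraries of both groups. Of the 6845 that reached it in both groups, 1992 were called lower (29.1%) and 47 higher (0.687%), and their median was -0.61. Without any filter all 8788 were tested, of which 2386 fell and 135 rose, against 6.49% and 5.17% of the 71049 features then tested.

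Features near the median were not called. The 3 features nearest the median were NONMMUG006517.2, NONMMUG016702.2 and NONMMUG035113.2, all with a log2 fold change of -0.62. NONMMUG035113.2 was at 4.79, 4.49 and 5.83 CPM in untreated replicates 6, 7 and 8 and at 2.71, 2.87, 2.55, 4.0 and 3.4 CPM in AAV9-LMNA replicates 1 to 5. Its groups did not overlap, and it did not pass (edgeR adjusted p = 0.0502). The groups of the other 2 overlapped (edgeR adjusted p = 0.107 and 0.213).

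Untreated replicate 6 was the highest library for most of the features that fell. Of the features tested, 234 had a log2 fold change of -2 or less (2.67%, against 1.41% of all features) and 14 one of 2 or more (0.16%, against 0.258%). Of the 234, 198 (84.6%) were highest in untreated replicate 6, 31 in replicate 8, 4 in replicate 7 and 1 in AAV9-LMNA replicate 5. Those called lower had a median of -1.32, and their highest library was untreated replicate 6 for 1859 of the 2482 (74.9%), replicate 8 for 424 and replicate 7 for 199. The part in this of the low levels of fibroblast, macrophage and endothelial markers in replicate 6 was not tested. Without untreated replicate 6, 1077 were called lower and 59 higher, where 7.99% and 7.31% of all features were called, and the median was -0.44. Without replicates 6 and 8 the counts were 321 and 21 (3.36% and 3.81% of all features, 7.17% in all), and the median was -0.33.

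The 8 features with the steepest falls, among those called whose groups did not overlap, had log2 fold changes of -4.36 to -3.13. Except for NONMMUG019018.2, they reached the filter's 0.446 CPM in all untreated but in fewer than 3 AAV9-LMNA libraries. A difference is thus built into these. With the share of reads outside features as a covariate, which is bound up with the group, 0 of the 8 were called (edgeR adjusted p = 0.107 to 0.588). Without untreated replicates 6 and 8, which leaves 1 untreated library, the log2 fold changes of the 8 ran from -3.19 to -0.63. NONMMUG019019.2 was at 4.41, 0.628 and 0.793 CPM in untreated replicates 6, 7 and 8, and at 0.133, 0.0755, 0.0927, 0.0416 and 0.0896 CPM in AAV9-LMNA replicates 1 to 5. Untreated replicate 6 stood well above replicates 7 and 8, and the AAV9-LMNA libraries held 1 to 3 counts each. The difference, -4.36 on the log2 scale (standard error 0.74, edgeR adjusted p = 0.00414), was -2.87 without replicate 6 (edgeR adjusted p = 0.00948). NONMMUG019018.2, whose identifier precedes it, was at 11.6, 2.38 and 4.38 CPM against 0.799, 0.34, 0.417, 0.583 and 0.986 CPM. It had the same order of untreated libraries (-3.23, standard error 0.51, edgeR adjusted p = 0.00381), and without replicate 6 the difference was -2.33.

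NONMMUG042726.2 was at 9.74, 5.29 and 5.83 CPM in the untreated libraries and at 0.0887, 0.944, 0.232, 1.33 and 0.403 CPM in AAV9-LMNA replicates 1 to 5. Untreated replicate 6 was the highest here too, at 1.67 times the next library. The AAV9-LMNA libraries spread from 0.0887 to 1.33 CPM, on 2 to 32 counts (log2 fold change -3.43, standard error 0.56, edgeR adjusted p = 0.00457). NONMMUG083639.1 was at 1.58, 0.897 and 1.21 CPM against 0.0887, 0.151, 0.0927, 0.167 and 0.134 CPM. It had the smallest standard error of the 8 (-3.14, standard error 0.39, edgeR adjusted p = 0.00115). NONMMUG063109.2, NONMMUG006088.2 and NONMMUG017887.2 fell by 3.50, 3.19 and 3.13 on the log2 scale. The value of NONMMUG017887.2 was -2.36 without untreated replicate 6 and -3.84 without AAV9-LMNA replicate 3. NONMMUG037912.2 had a log2 fold change of -3.21, but its untreated libraries held 7.99, 0.583 and 1.49 CPM, and without replicate 6 it did not pass (-1.47, edgeR adjusted p = 0.056).

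The 8 features with the steepest rises, chosen in the same way, include 2 with no count in any untreated library. Except for NONMMUG039046.2, the 8 reached the filter's limit in 3 or more AAV9-LMNA but not in all untreated libraries. A difference is thus built into these. None of the 8 was called with the covariate, which is bound up with the group (edgeR adjusted p = 0.318 to 0.954). Without untreated replicates 6 and 8, which leaves 1 untreated library, the log2 fold changes of the 8 ran from 1.40 to 8.84. NONMMUG087670.1 was at 3.24, 3.06, 2.92, 2.75 and 0.0896 CPM in AAV9-LMNA replicates 1 to 5, and NONMMUG031164.2 at 4.66, 1.93, 1.71, 1.75 and 0.0448 CPM. In both, AAV9-LMNA replicate 5 was near 0 like the untreated libraries. Set against 3 counts per untreated library, the limit that a count of 0 allows, the AAV9-LMNA means were at least 18.1-fold and 15.2-fold higher (edgeR adjusted p = 0.0177 and 0.0323). Neither was called with NONCODE features alone (edgeR adjusted p = 0.0522 and 0.083). The call of NONMMUG031164.2 was kept in 2 of the 8 fits that leave out 1 library, and that of NONMMUG087670.1 in 7, not without untreated replicate 6.

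Of the other rises, NONMMUG039046.2 was at 0.624, 1.52 and 0.793 CPM in untreated replicates 6, 7 and 8 and at 5.77, 3.59, 2.55, 4.50 and 3.36 CPM in AAV9-LMNA replicates 1 to 5. Every AAV9-LMNA library was above the highest untreated one (log2 fold change 2.10, standard error 0.37, edgeR adjusted p = 0.00452). NONMMUG029806.2 was at 0.375, 1.17 and 0.0466 CPM against 3.42, 2.98, 4.54, 6.33 and 1.97 CPM (2.94, standard error 0.67, edgeR adjusted p = 0.0135). It did not pass without untreated replicate 6 (edgeR adjusted p = 0.0648), and without replicate 7 its value was 4.19. NONMMUG092695.1, NONMMUG020074.2, NONMMUG002819.2 and NONMMUG014784.2 rose by 3.50, 2.85, 2.31 and 2.03 on the log2 scale. Without untreated replicate 7, NONMMUG092695.1 stood at 4.28 and NONMMUG020074.2 at 5.04. For NONMMUG014784.2 untreated replicate 6 was at 0.125 CPM, below the 1.75 and 1.45 CPM of replicates 7 and 8, and its call was kept in 3 of the 8 fits that leave out 1 library.

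**Figure D3:**
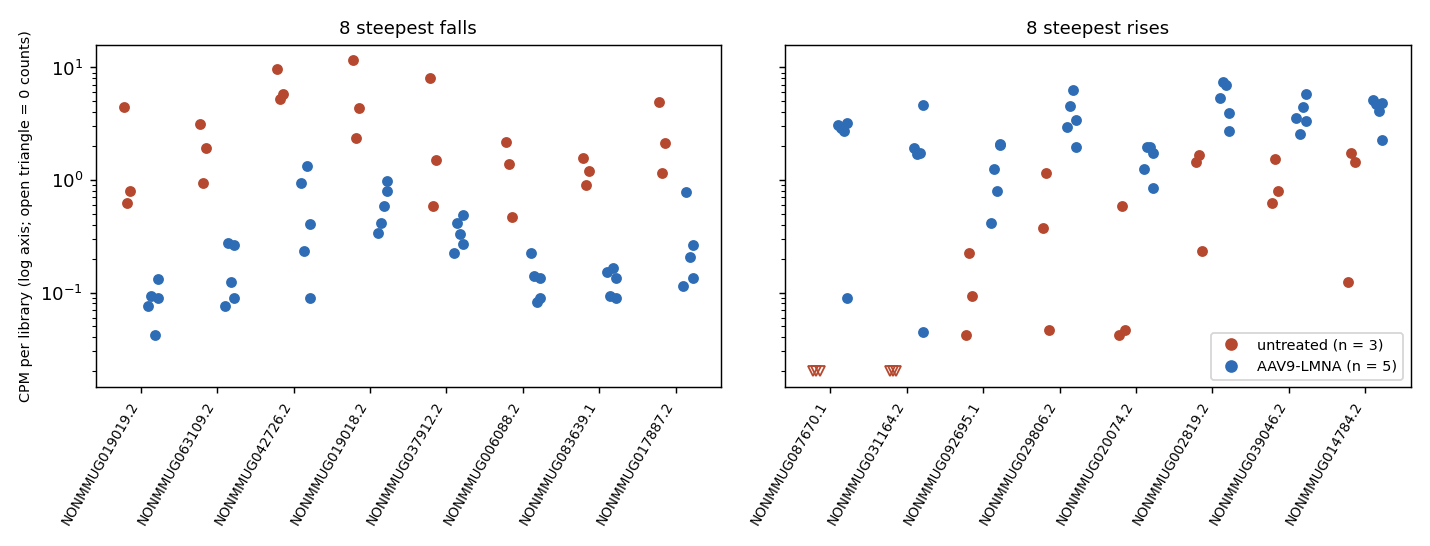
Points give the CPM of each library on a log axis (red, 3 untreated; blue, 5 AAV9-LMNA; open triangles, 0 counts) for the 8 features with the steepest falls (left) and rises (right) among those called whose groups do not overlap. In the 2 leftmost rises, 1 AAV9-LMNA library (replicate 5) lies under 0.1 CPM.

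A smaller number of features was called the same way whatever the scaling. Of the 2482 that fell, 551 (22.2%) also fell with NONCODE features alone, with Ensembl factors and with libraries scaled to outside reads, and 493 of these fell as well in each of the 8 fits that leave out 1 library. Of the 100 that rose, 44 and 24 did so. As shares of the features tested, the 551 and 493 were 6.29 and 5.63%. Over all 11461 NONCODE features tested the same conditions were met by 5.71 and 5.16%. For rises the shares were 0.502 and 0.274%, against 0.593 and 0.323%. The low-level features make up most of the NONCODE features tested. Among the 766 abundant ones the shares were 10.3 and 10.1% for falls and 1.83 and 1.31% for rises. A narrower set was taken from the 493 and the 24 by also asking for a call without untreated replicates 6 and 8. That fit leaves 1 untreated library, so no spread between untreated libraries enters it, and it served here only to pick examples. The narrower set was picked out after its values were seen, and with conditions that favour large and even differences.

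Among the falls of the narrower set, the smallest p in the fit of all 8 libraries belonged to NONMMUG001406.2. It was at 8.49, 8.92 and 8.30 CPM in untreated replicates 6, 7 and 8 and at 2.75, 2.15, 2.09, 2.37 and 2.28 CPM in AAV9-LMNA replicates 1 to 5. Unlike most of the features that fell, it had nearly the same level in all 3 untreated libraries (log2 fold change -1.80, standard error 0.17, edgeR adjusted p = 0.00027). NONMMUG038281.2 was at 9.32, 5.29 and 5.50 CPM against 1.15, 0.868, 1.48, 0.916 and 1.16 CPM (-2.51, standard error 0.27, edgeR adjusted p = 0.000587). NONMMUG071573.1 was at 10.3, 6.64 and 7.37 CPM against 1.77, 2.08, 2.04, 2.37 and 1.93 CPM (-1.91, standard error 0.20, edgeR adjusted p = 0.000611). In both, untreated replicate 6 was the highest and the other 2 untreated libraries were still more than 2 times above every AAV9-LMNA library.

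In the rises of the narrower set the log2 difference ran from 1.07 to 2.01. NONMMUG001372.2 was at 1.75, 2.69 and 2.15 CPM in untreated replicates 6, 7 and 8 and at 6.03, 4.49, 4.17, 5.95 and 5.06 CPM in AAV9-LMNA replicates 1 to 5 (1.31, standard error 0.23, edgeR adjusted p = 0.00453). NONMMUG017959.2 was at 1.37, 1.39 and 2.29 CPM against 4.88, 4.42, 4.08, 4.54 and 3.23 CPM (1.41, standard error 0.26, edgeR adjusted p = 0.00508). The groups of both did not overlap, and that no single library set the difference follows from the way they were picked. NONMMUG016178.3 and NONMMUG016185.2 rose by 1.24 and 1.14, NONMMUG006734.2 and NONMMUG013637.2 by 1.32 and 1.07, and NONMMUG000708.2 by 2.01.

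**Figure D4:**
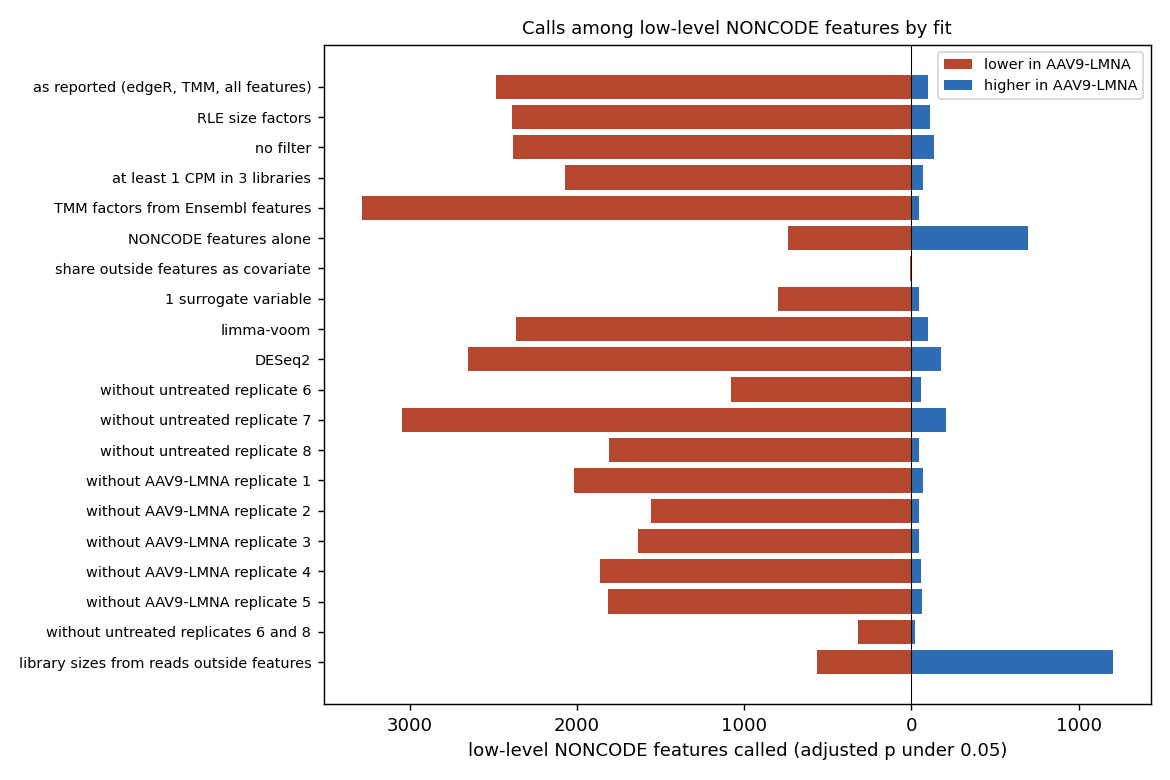
Bars give the number of low-level NONCODE features called lower (red, to the left) or higher (blue, to the right) in AAV9-LMNA hearts at an adjusted p under 0.05, 1 row per fit. The reported fit has 2482 lower and 100 higher, and the split turns over only when libraries are scaled to reads outside features, with 562 lower and 1205 higher.

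Features that were not called include some of very even level. NONMMUG036451.2 was at 2.21, 1.97 and 2.05 CPM in untreated replicates 6, 7 and 8 and at 2.0, 2.11, 2.18, 1.87 and 2.28 CPM in AAV9-LMNA replicates 1 to 5. Its coefficient of variation over all 8 libraries was 6.54%, and NONMMUG063504.1 and NONMMUG020350.2 had 6.51 and 7.61%. The log2 fold changes of the 3 were 0.085, 0.21 and -0.094 (edgeR adjusted p = 0.773, 0.37 and 0.745). With NONCODE features scaled alone NONMMUG063504.1 was called higher, at 0.76 (edgeR adjusted p = 0.0185). Scaled to reads outside features, NONMMUG063504.1, NONMMUG036451.2 and NONMMUG020350.2 were all called higher, at 0.91, 0.81 and 0.63 (edgeR adjusted p = 0.0101, 0.0162 and 0.0485). In that fit 43.1% of all features were called higher, and the median of all features was 0.67. The 3 were chosen for an even CPM, and both scales were larger in the untreated libraries. The rises on these scales thus follow from the choice.

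Some low-level features were switched between near 0 and a clear level from library to library. Counting as off a library with at most 3 counts and as on one with at least 20, 15 features were off in some libraries and on in all others; this rule was set after the values were seen. Of these, 6 divided the libraries alike, with AAV9-LMNA replicates 1 to 4 on one side and untreated replicates 6, 7 and 8 with AAV9-LMNA replicate 5 on the other. NONMMUG014390.2 was at 3.29, 2.96 and 3.17 CPM in the untreated libraries, at 0 in AAV9-LMNA replicates 1 to 4 and at 2.64 CPM in replicate 5. NONMMUG059848.1 and NONMMUG027833.2 had the same libraries on, and NONMMUG087670.1, NONMMUG031164.2 and NONMMUG067398.1 the opposite ones. Among all features counted, 7 had this division, and none of them was an Ensembl gene. It crosses the groups, and the sources used here do not give the parentage of these mice of mixed strain.

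Another 3 of the 15 were off in AAV9-LMNA replicate 1 alone, the library without Y-linked expression. NONMMUG046384.2 was at 5.04, 3.05 and 5.41 CPM in the untreated libraries, at 0 in AAV9-LMNA replicate 1 and at 1.43, 2.32, 2.37 and 2.78 CPM in replicates 2 to 5. NONMMUG046388.2 and NONMMUG038926.2 were at 0 there too, and among all features counted 11 had this pattern, of which 8 were Ensembl genes, 3 of them on the Y chromosome. NONMMUG005133.2 was on in untreated replicate 8 alone, at 7.56 CPM against 0.134 CPM or less in the other libraries. Among all features counted, 42 were on in that library alone, 37 of them Ensembl genes, and 5 Ensembl genes were on there and in AAV9-LMNA replicate 5, the other library with more than 1 count of NONMMUG005133.2. One of the 5 is Scgb1a1, a secreted protein of the airway lining, at 60.2 CPM in untreated replicate 8, 1.39 CPM in AAV9-LMNA replicate 5 and 0.0897 CPM or less elsewhere. Another is Clca1, made by mucus-secreting cells, at 61.0, 3.49 and 0.0463 CPM or less. Both were chosen after their values were seen. The atrial markers were highest in untreated replicate 8 too, at 1217 CPM, but not in AAV9-LMNA replicate 5, at 128 CPM. Whether NONMMUG005133.2 goes with either was not tested.

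**Figure D5:**
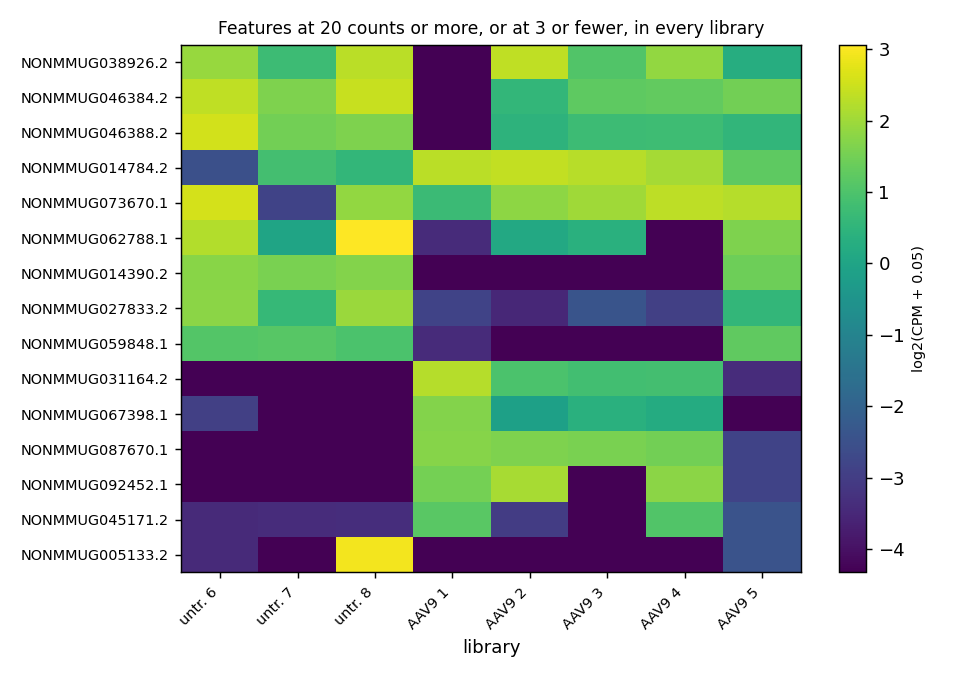
Colour gives the level, as log2(CPM + 0.05), of the 15 low-level NONCODE features (rows) that had at most 3 or at least 20 counts in each of the 8 libraries (columns). In 6 rows the level changes between AAV9-LMNA replicates 1 to 4 and all other libraries, and the top 3 rows are dark in AAV9-LMNA replicate 1 alone.

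Other single libraries stood out in features without such a division. NONMMUG082611.1 had the highest ratio of untreated replicate 6 to its next library, 3.66 against 0.359 CPM, and NONMMUG048426.1 of replicate 7, 2.33 against 0.604 CPM. NONMMUG031930.2 was at 6.57 CPM in AAV9-LMNA replicate 1 and at 0.583 CPM or less elsewhere, and NONMMUG089376.1 at 4.68 CPM in AAV9-LMNA replicate 3 and at 0.399 CPM or less elsewhere. In AAV9-LMNA replicates 2, 4 and 5 the largest such ratios were smaller, 1.78 for NONMMUG038049.2, 2.25 for NONMMUG002523.2 and 2.20 for NONMMUG004212.2. None of those tested passed. Features whose identifiers follow one another tended to move alike: over 2714 pairs of tested features with consecutive numbers, Spearman's rho of their log2 fold changes was 0.56. This is a description across features that share the libraries and may share reads or a gene.

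At the bounds of the rule the fold changes varied on both sides. Just inside the lower bound, at means of 0.50 CPM, NONMMUG060783.1 had a log2 fold change of 0.25 and NONMMUG002576.2 did not pass the filter. Just outside, NONMMUG025775.2 and NONMMUG000374.2 had -0.98 and -0.71. Just under 5 CPM lay NONMMUG016984.2 and NONMMUG075600.1, with log2 fold changes of -0.22 and -0.73, and just over it NONMMUG022369.3 and NONMMUG029665.2, with 0.65 and -1.36.

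Fixed lists of 2 kinds hold genes that act on such transcripts. Of 27 genes of nuclear RNA surveillance, the exosome and its cofactors, 4 rose, none fell and 23 were not called. The list's median log2 fold change was 0.22, against 0.21 for all Ensembl features, of which 17.7% were called higher. Exosc1, an exosome subunit, was at 7.68 ± 0.791 CPM (SD, n = 3) in untreated and 10.8 ± 0.973 CPM (SD, n = 5) in AAV9-LMNA libraries, a log2 fold change of 0.57 (edgeR adjusted p = 0.0173). Exosc4 and Exosc3, further subunits, rose by 0.50 and 0.44, and Ncbp2 of the cap-binding complex by 0.62. Of the 4, Exosc1 was called in each of the fits that leave out 1 library, and the others lost their call in some. Of 32 genes of the Integrator complex and of transcript cleavage and termination, 5 rose (15.6%) and 1 fell (3.13%). The median log2 fold change of this list was 0.21, again near that of all Ensembl features, of which 17.7% were called higher and 6.12% lower. Scaf4, which limits the use of early polyadenylation sites, fell from 36.8 ± 2.87 CPM (SD, n = 3) to 18.6 ± 0.939 CPM (SD, n = 5), a log2 fold change of -0.90 (edgeR adjusted p = 0.000661). Cpsf3, the endonuclease that cuts the transcript before its tail is added, rose by 0.41, and Cstf2 and Cpsf2 by 0.49 and 0.34. Cstf2 and Cpsf2 lost their call in some of the fits that leave out 1 library. Among these was the fit without untreated replicate 6 (edgeR adjusted p = 0.0534 and 0.0514). With factors from Ensembl features none of the surveillance genes was called (edgeR).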

How the data were processed

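Heart RNA went into 8 Illumina TruSeq libraries, per the labels' protocols. Each library has 1 deposited table, which holds raw read counts of the features. The authors counted without strand over Ensembl and NONCODE version 5 genes, per the deposited tables' names. HTSeq, TopHat2, limma and edgeR, and the builds GRCm38 and mm10, are named per the submitters' processing notes. The tables' 5 summary lines stayed out of library sizes; of reads on features, outside them or ambiguous, 12.1 to 24.7% were outside and 21.0 to 26.4% ambiguous. Symbols and gene types came from GENCODE M21, with 53274 of 53465 Ensembl identifiers matched. NONCODE positions and sequences were not used here.

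All features were tested together with edgeR 4.0.16 (R 4.3.3): filterByExpr, TMM scaling, robust quasi-likelihood fits with the group as the only term, and Benjamini-Hochberg adjustment at 0.05. Log2 fold changes have untreated as the base. CPM values use unscaled library totals. Alternatives were RLE factors, limma-voom (limma 3.58.1), DESeq2 1.42.0, sva 3.50.0, other filters, scalings and covariates, other averages for choosing the members, and libraries left out. The scripts were tested on simulated data. Whether each library stands for its own animal is not in the labels, so the spread behind a p-value is that between libraries and may be technical.

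The members, lists and the rule for named features were chosen with earlier results of these data known. Named were the 8 steepest falls and rises among called members whose groups do not overlap, the 3 nearest the median, 2 on each side of each bound, for each library the member with the highest ratio to its next library (at least 50 counts there), the 3 uncalled members of least variation, and up to 4 called genes of each pathway list. Replicate numbers are not shared between the groups.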

Additional observations from a re-analysis of the deposited data

Results flagged for a closer look

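In the AAV9-LMNA group of 5, 1 library lay far from the other 4 for 8 of the named features and for Lmna. The measure was the gap to its nearest neighbour as a share of the whole range. A value above 0.71 is reached by chance in about 1 of 20 groups, and 43 items were looked at, so some such values arise by chance. Features picked for a high ratio in 1 library are among those flagged, where this follows from the choice: NONMMUG031930.2 (0.924, replicate 1 high), NONMMUG089376.1 (0.951, replicate 3 high), NONMMUG002523.2 (0.783, replicate 4 high) and NONMMUG004212.2 (0.814, replicate 5 high). NONMMUG087670.1 had 0.844, with replicate 5 at 0.0896 CPM and the others at 2.75 to 3.24 CPM. NONMMUG048426.1 had 0.852, with replicate 5 at 0.179 CPM and the others at 0.541 to 0.604 CPM. NONMMUG005133.2 had 1, with 3 counts in replicate 5 and 0 in the others. NONMMUG017887.2 had 0.773, with replicate 3 at 0.788 CPM and the others at 0.113 to 0.266 CPM. Lmna had 0.713, with replicate 5 at 739 CPM and the others at 226 to 373 CPM.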

How the results depend on the processing

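Of the low-level features, 2482 fell and 100 rose with a median log2 fold change of -0.62. Leaving out 1 library at a time gave 1077 to 3049 that fell, 44 to 205 that rose, and medians of -0.69 to -0.44. The medians of all features in these fits were -0.045 to -0.024. Fewest fell without untreated replicate 6 (1077) and then without AAV9-LMNA replicate 2 (1560) or 3 (1633). Values that moved otherwise were as follows. Without untreated replicates 6 and 8, 321 fell and 21 rose (median -0.33). With 1 surrogate variable, 797 fell and 45 rose (-0.40, against -0.017 for all features). With the share of reads outside features as a covariate, which is bound up with the group, 9 fell and 3 rose (-0.17). With NONCODE features alone, which that scaling centres near 0, 737 fell and 696 rose (-0.046). With Ensembl factors, 46 rose (-0.82). DESeq2 called 174 higher. Scaled to reads outside features, which was added after the data were seen, 562 fell and 1205 rose, and the median turned to 0.12. RLE factors, limma-voom, the other filters and the other averages for choosing the members kept the counts within 1.5 times. For the surrogate variable, DESeq2 and most fits with 1 library left out, the shares of all features called are not given here. Those counts thus do not set the low-level features apart from all features. Apart from the centring with NONCODE features alone, the cause of these shifts was not tested.

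Genes called in the surveillance list numbered 4, and 1 to 9 with 1 library left out. They numbered 1 with a surrogate variable, 7 with RLE factors, 9 with DESeq2 and 25 scaled to outside reads. With Ensembl factors and with the covariate 0 were called. In the termination list the genes called numbered 6, and 2 to 13 with 1 library left out. There they numbered 2 with a surrogate variable, 10 with DESeq2, 1 with the covariate and 28 scaled to outside reads. In that last fit 46.1% of all features were called, 43.1% higher and 2.93% lower, and their median was 0.67. The share of Ensembl features called in it is not given here, so the 25 and 28 do not set the lists apart. Of the 2 well-known long noncoding RNAs tested 0 were called by edgeR, with 0 at an unadjusted p under 0.05 and 0 by DESeq2, and 1 was called when scaled to outside reads. The ratio of reads outside features was 1.41 to 1.73 with 1 library left out.

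Named features and genes that turned direction with the covariate were NONMMUG037912.2 (0.86), NONMMUG014784.2 (-0.97), NONMMUG006517.2 (0.30), NONMMUG002523.2 (-0.49), NONMMUG020350.2 (0.034), NONMMUG000708.2 (-0.056), Ncbp2 (-0.14) and Tug1 (1.08). Scaled to outside reads, NONMMUG006517.2 (0.15), NONMMUG016702.2 (0.053), NONMMUG035113.2 (0.083), NONMMUG016984.2 (0.49), NONMMUG020350.2 (0.63), Tug1 (0.70) and Dleu2 (0.099) did. Without untreated replicates 6 and 8, NONMMUG006517.2 (0.028), NONMMUG020350.2 (0.019), NONMMUG025775.2 (1.48) and Tug1 (0.33) did, with NONCODE features alone NONMMUG016984.2 (0.34) and NONMMUG020350.2 (0.47), with Ensembl factors NONMMUG036451.2 (-0.12), and with a surrogate variable Tug1 (0.39). With 1 library left out, NONMMUG048426.1 ran from -1.44 to 0.33 (without untreated replicate 7), NONMMUG060783.1 from -0.10 to 0.72 (below 0 when untreated 8 or AAV9-LMNA 1 was dropped) and Tug1 from -0.30 to 0.39 (without untreated replicate 6). Without untreated replicates 6 and 8 the log2 fold change of Lmna was 2.56. No paired analysis was possible because the groups share no replicate number. No fit at another depth was run; 5382 of the 8788 features had at least 10 counts in all 8 libraries.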
